A study of Drosophila melanogaster with 7 samples.

Results

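Transcripts of 8 genes of lipid metabolism were followed through the cell classes of the first instar larval brain, in starved and in normally fed larvae. The genes were taken by their symbols, whd, pdgy, Lip4, bmm, FASN1, ACC, mdy and Lsd-2, from a list of 17493 genes counted in every library, and each symbol occurred in it. The study dissociated brains of Drosophila melanogaster larvae of the wild type strain Canton-S and counted the transcripts of single cells with a droplet method (10x Genomics), in which each molecule carries a unique molecular identifier (UMI). Starvation larvae spent 4 hr on plain 2% agar. According to the labels this began 11 hr after hatching, and according to the methods slightly later. Normal larvae stayed on food. Both groups carried no transgene, and brains of many larvae were pooled for each preparation. The labels give 3 Starvation and 4 Normal libraries.

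Cells gain energy from stored fat in a fixed order of steps. Lipases release fatty acids from triacylglycerol, acyl-CoA synthetases activate them, and carnitine palmitoyltransferase carries them into mitochondria for oxidation. In the opposite direction, acetyl-CoA carboxylase and fatty acid synthase build fatty acids, and diacylglycerol acyltransferase stores them as triacylglycerol in lipid droplets, which are coated by perilipins. In the fly this exchange is best known from the fat body, and glial cells are the main site of lipid droplets in the larval brain. Among the 8 genes, whd (withered) encodes the carnitine palmitoyltransferase and pdgy (pudgy) a long-chain acyl-CoA synthetase. Lip4 encodes a predicted lipase, and bmm (brummer) the triacylglycerol lipase related to mammalian ATGL. FASN1 encodes a fatty acid synthase, ACC the acetyl-CoA carboxylase, mdy (midway) a diacylglycerol acyltransferase and Lsd-2 a perilipin.

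On the Release 6 assembly, Lip4 lies on chromosome 2L from 10527572 to 10531778 on the plus strand, bmm on 3L from 14776496 to 14786412 on the minus strand, FASN1 on 2L from 3056598 to 3068177 on the plus strand and Lsd-2 on X from 15069127 to 15076220 on the minus strand. No other annotated gene overlapped these 4. The gene whd, on 2R from 10469473 to 10478567 on the minus strand, is overlapped by CG11777 and an antisense RNA on the other strand. The gene pdgy, on X from 14933670 to 14953532 on the minus strand, shares its strand with lncRNA:CR44831 and is overlapped by Flo2 on the other. ACC, on 2R from 7974115 to 7991862 on the minus strand, is overlapped by Nup44A, and mdy, on 2L from 16816660 to 16826964 on the plus strand, by CG13280 and Cse1, each on the opposite strand. Reads of lncRNA:CR44831 cannot be told from those of pdgy where they share sequence.

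The 7 libraries held 9353 cells, of which 8696 passed the filters of the methods, 4347 from Starvation and 4349 from Normal, with 5359444 to 25232852 UMIs per library. The libraries were grouped into the experiments listed with the study through equal numbers of cells and equal medians, which gave the replicates Starvation A and B and Normal A, B and C. This link rests on values and not on a label. The median depth of the kept cells was 6908 and 5768 UMIs in Starvation A and B, against 2370, 3281 and 12296 UMIs in Normal A, B and C. Libraries also shared cell barcodes: 1648 of the 8696 cells had a barcode that occurred in another library, also across conditions, and 1094 of these had more than 3 times as many UMIs there. Among glial cells, such copies made up 8 of 303 cells in Starvation A and 44 of 78 cells in Normal B, and none in the other replicates. Changes in glia, NPCs and optic lobe epithelium are therefore also given without copies or without all shared barcodes. Levels and shares across classes include these cells, and their part in them was not tested. Copies were 483 of the 1255 NPCs, 107 of the 188 cells of optic lobe epithelium and 26 of the 47 hemocytes. Cells were clustered without the genes described here and named by markers. Levels are UMIs of a gene per 1000000 UMIs of a class in a replicate (CPM), and were averaged only over replicates with at least 10 cells of the class. Conditions were compared over replicates with the quasi-likelihood test of edgeR, with p-values corrected for every gene in the fit (Benjamini-Hochberg) and a threshold of 0.05. The 3' tags do not measure the length of a transcript, so levels of different genes were not ranked against each other. As nothing states that all experiments were reared separately, p-values measure the spread between these preparations only.

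The largest class was neurons with 5466 cells, followed by neural progenitor cells (NPCs) with 1255, undifferentiated neurons (UNs) with 813, glial cells with 595, optic lobe epithelium with 188 and muscle with 109 cells. Glial cells expressed all 13 glial markers of the list in every replicate. Their summed level was 21594 and 12348 CPM in Starvation A and B, and 23966, 17766 and 11539 CPM in Normal A, B and C. In neurons the same list reached 1039 and 405 CPM in Starvation, against 2632, 681 and 616 CPM in Normal, and the source of these transcripts was not tested. Within the glia, 81 cells were named astrocyte/neuropil glia, 127 cortex/chiasm glia and 98 surface glia, while 289 cells in 4 clusters took no subtype name and are called here by their leading genes, Obp99a, CG30197, trv and CG32368.

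The 8 genes fell into different patterns across the classes. Glial cells, 6.84% of all cells, held 74.9% of the Lip4 UMIs, 62.8% of the Lsd-2 UMIs and 47.6% of the pdgy UMIs. The share of glia was smaller for mdy (30.6%), whd (23.2%), ACC (19.8%), FASN1 (10.3%) and bmm (6.75%). Neurons, 62.9% of the cells, held 65.8% of the FASN1 UMIs and 43.8% of those of whd. Glia were 366 of the 4347 Starvation cells and 229 of the 4349 Normal cells, and their share of the UMIs was higher in Starvation for all 8 genes. For pdgy it was 52.7% of the UMIs in Starvation and 28.2% in Normal, for whd 28.5% in Starvation and 10.7% in Normal, for Lip4 77.2% in Starvation and 62.7% in Normal, and for Lsd-2 65.3% in Starvation and 55.9% in Normal, while for mdy it was 31.3% in Starvation and 28.8% in Normal. The glial share also rose for genes without a rise in glia, from 8.97% in Normal to 12.4% in Starvation for FASN1 and from 16.6% to 23.2% for ACC. For bmm it was 8.06% in Starvation and 3.50% in Normal. The part of the larger number of glial cells in these shares was not tested. NPCs, 14.4% of the cells, held 47.5% of the mdy UMIs and 33.5% of the bmm UMIs, with the copies included.

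**Figure D1:**
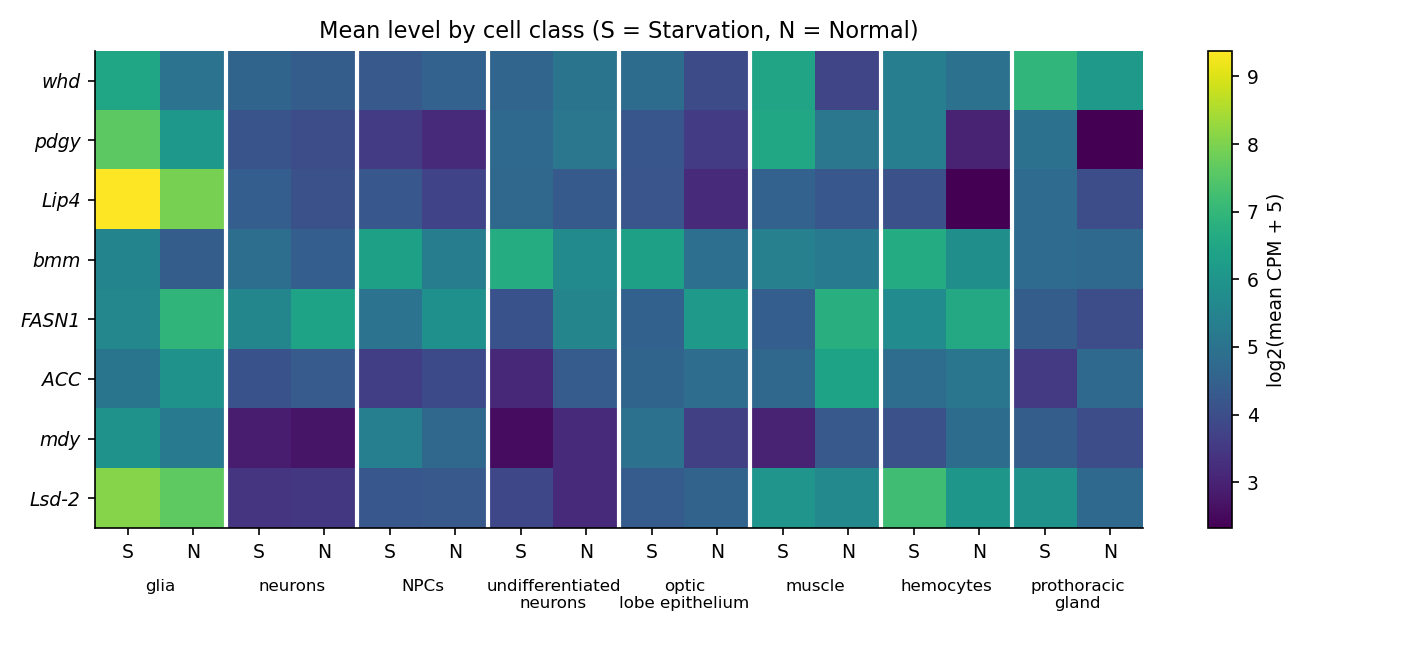
Colours give log2(mean CPM + 5) of each gene in 8 cell classes, with Starvation (S) left of Normal (N) in each class and the mean taken over replicates with at least 10 cells. Lip4, Lsd-2 and pdgy are brightest in glia, mdy is dark in neurons, and bmm is brighter in NPCs, undifferentiated neurons and hemocytes than in glia.

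Lip4 averaged 407 ± 246 CPM over the 5 replicates of glia (SD), and the next of the large classes, UNs, reached 17.7 ± 12.3 CPM (n = 4). Every replicate of glia lay above every replicate of UNs, neurons, NPCs and optic lobe epithelium. Among glial groups, astrocyte/neuropil glia had 1844 CPM in Starvation A and 914 CPM in Normal A, the only replicates with enough cells. Surface glia stood apart with 37.0 ± 24.3 CPM (n = 4), and each of its replicates lay below every replicate of the other glial groups. Lsd-2, the perilipin, did not follow this split: it was 206 ± 58.9 CPM (n = 4) in surface glia and 221 ± 115 CPM (n = 3) in cortex/chiasm glia, which do not differ beyond their spread. Outside the glia it fell to 14.4 ± 2.67 CPM in NPCs and 5.76 ± 3.31 CPM in neurons (n = 5 each).

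The genes of fatty acid synthesis had their highest means in the cortex/chiasm glia, which enwrap neuronal cell bodies. There FASN1 averaged 170 ± 54.2 CPM and ACC 87.6 ± 19.1 CPM over 1 Starvation and 2 Normal replicates. In Normal larvae alone, FASN1 was at 198 ± 35.4 CPM in cortex/chiasm glia and 165 ± 80.1 CPM in the cluster led by Obp99a (n = 2 each), which do not differ beyond their spread. In surface glia FASN1 was at 33.6 ± 32.2 CPM and ACC at 14.2 ± 10.6 CPM (n = 4). All 3 replicates of cortex/chiasm glia lay above all 4 of surface glia for both genes. ACC in neurons (14.1 ± 1.96 CPM) and NPCs (8.98 ± 2.72 CPM) was lower than in glia as a whole, at 44.8 ± 24.0 CPM (n = 5 each). FASN1 in neurons, 65.2 ± 21.3 CPM, and in glia, 87.1 ± 44.6 CPM, did not differ beyond their spread.

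The lipase gene bmm was not highest in glia. Among the named classes it was highest in hemocytes (74.2 ± 30.5 CPM, n = 2), UNs (72.3 ± 37.3 CPM, n = 4), NPCs (50.7 ± 25.1 CPM, n = 5) and optic lobe epithelium (50.2 ± 31.3 CPM, n = 4), which do not differ beyond their spread. The hemocyte values came from 15 cells of Starvation A and 31 of Normal B. Hemocytes held 27 bmm UMIs in all, and 26 of their 47 cells were copies. An unnamed cluster led by CG15550 had 90.5 ± 25.6 CPM in Starvation (n = 2) and too few Normal cells for a mean. The acyltransferase gene mdy was at 42.3 ± 12.8 CPM in glia and 27.1 ± 13.5 CPM in NPCs, which overlapped, and at 1.88 ± 1.34 CPM in neurons (n = 5 each), below every replicate of both. Without the shared barcodes, however, mdy in the glia of Normal B was 0. Levels of whd varied less between classes, with 50.6 ± 33.3 CPM in glia and 17.3 ± 4.10 CPM in neurons (n = 5 each). The lowest glial replicate of whd, Normal B at 26.2 CPM, exceeded the highest of neurons, at 21.8 CPM, but was 0 without the shared barcodes. The small endocrine classes were described from pooled cells, with exact 95% Poisson intervals that cover counting error only. The 24 cells of the corpora allata, source of juvenile hormone, had 402 CPM of pdgy in Starvation (interval 312 to 509) and 265 CPM in Normal (151 to 430). The 52 cells of the prothoracic gland, which makes ecdysone, had 120 CPM of whd in Starvation (84.4 to 165) and 64.3 CPM in Normal (23.6 to 140). In both glands the intervals of the conditions overlapped, and 18 of the 24 and 40 of the 52 cells were copies of barcodes that were richer in another library.

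In glial cells, the comparison of starved with fed larvae called whd, pdgy and Lip4, all 3 higher upon starvation, and none of the other 5 genes. In the same fit 105 of 4389 genes were called, or 2.39%, and 71 of them were higher, or 1.62% of the genes tested. The median log2 fold change was 1.38 over the 8 genes and -0.002 over all genes tested. The paper had already reported whd, pdgy and Lip4 as higher and FASN1 as lower in starved glia, from these same cells. The calls and the median of the 8 genes are therefore a description and no independent support. In the glia of Starvation and Normal larvae, the replicates did not overlap for 7 of the 8 genes: whd, pdgy, Lip4, bmm and mdy were higher and FASN1 and ACC lower in both Starvation replicates. Of all genes tested, 38.4% did not overlap. Without the cells of a shared barcode, which left 25 glial cells in Normal B, bmm overlapped, at 33.0 and 40.8 CPM in Starvation A and B, against 7.58, 43.9 and 8.52 CPM in Normal A, B and C. ACC overlapped as well, at 33.0 and 21.6 CPM in Starvation A and B, against 43.6, 0 and 37.9 CPM in Normal A, B and C.

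**Figure D2:**
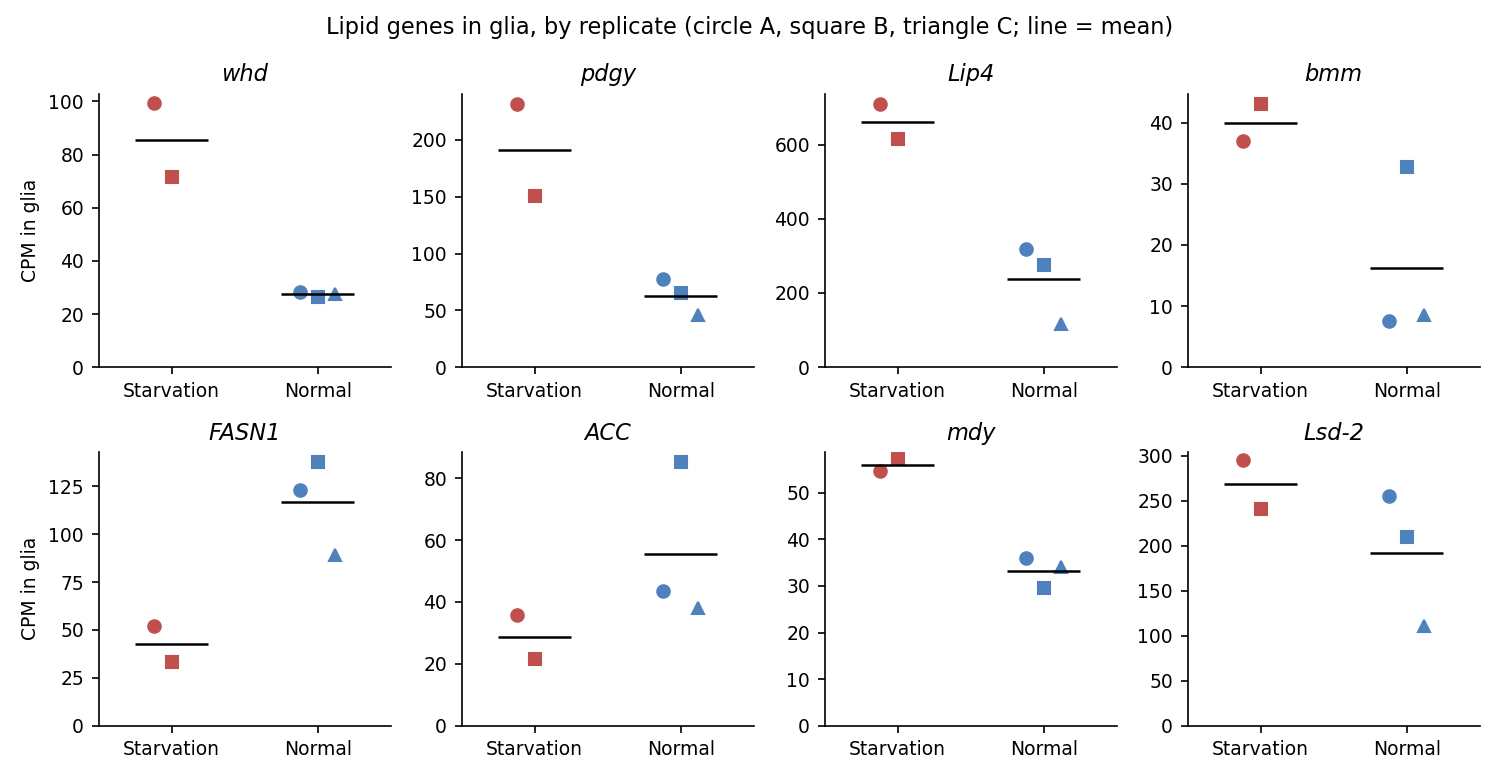
Level of each gene in glial cells (CPM, linear axis from 0), with Starvation left of Normal, 1 point per replicate (circle A, square B, triangle C) and a line for the mean. The Starvation points of whd, pdgy, Lip4, bmm and mdy lie above all Normal points, those of FASN1 and ACC lie below, and only those of Lsd-2 overlap.

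The carnitine palmitoyltransferase gene whd had 99.4 and 71.7 CPM in Starvation A and B, against 28.4, 26.2 and 27.5 CPM in Normal A, B and C. Both Starvation values lay above all 3 Normal values. The Normal B value joined libraries at 39.0 CPM (7 UMIs) and 7.97 CPM (1 UMI), and no whd UMI was left there without the shared barcodes. The log2 fold change was 1.91 ± 0.30 (SE, adjusted p = 0.016, edgeR). The acyl-CoA synthetase gene pdgy had 231 and 151 CPM in Starvation A and B, against 77.7, 65.6 and 45.5 CPM in Normal A, B and C. The lower Starvation replicate was still well above the highest Normal replicate, with a log2 fold change of 1.91 ± 0.30 (adjusted p = 0.016, edgeR). These 2 genes act one after the other on the way of a fatty acid into the mitochondrion.

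The lipase gene Lip4 had 708 and 614 CPM in Starvation A and B, against 318, 275 and 117 CPM in Normal A, B and C. Its log2 fold change was 1.78 ± 0.36 (adjusted p = 0.034, edgeR), and the groups did not overlap although Normal C was far below the other Normal replicates. The lipase gene bmm had 37.1 and 43.0 CPM in Starvation A and B, against 7.58, 32.8 and 8.52 CPM in Normal A, B and C. Its estimate was as large as that of Lip4, at 1.79 ± 0.56, but Normal B came close to the Starvation values and the test did not pass (adjusted p = 0.11, edgeR). Without Normal B the estimate for bmm was 2.51 (adjusted p = 0.013).

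The calls depended on few replicates. Without Normal A, the adjusted p-values of edgeR were 0.080 for whd, 0.064 for pdgy and 0.086 for Lip4. Without Normal C they were 0.088 for whd, 0.088 for pdgy and 0.088 for Lip4, and without Starvation A 0.11 for whd, 0.082 for pdgy and 0.11 for Lip4, so that no gene of the 8 was called in these 3 cases. Without Starvation B, whd and pdgy were called and Lip4 was not (adjusted p = 0.053), and without Normal B these 3 and bmm were called. The fold changes moved little, between 1.74 and 2.03 for whd, 1.65 and 2.09 for pdgy and 1.38 and 1.97 for Lip4. With all cells of a shared barcode left out, a choice made after seeing the data, the log2 fold changes were 2.01 for whd (adjusted p = 0.033), 2.13 for pdgy (0.011) and 1.78 for Lip4 (0.042). Within the libraries aggregated first by the authors, the log2 ratio with 5 CPM added was 1.69 for whd, 1.63 for pdgy and 1.24 for Lip4, and between Starvation B and Normal C, aggregated later, it was 1.24, 1.62 and 2.34 for the same genes in that order.

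The genes of fatty acid synthesis pointed the other way without passing the test. FASN1 had 52.1 and 33.5 CPM in Starvation A and B, against 123, 138 and 89.0 CPM in Normal A, B and C, and the groups did not overlap. The log2 fold change was -1.10 ± 0.32 (adjusted p = 0.087, edgeR). ACC had 35.7 and 21.5 CPM in Starvation A and B, against 43.6, 85.3 and 37.9 CPM in Normal A, B and C. Here Starvation A lay only just below Normal C, and the log2 fold change was -0.53 ± 0.42 (adjusted p = 0.55, edgeR).

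The storage genes gave smaller differences. The acyltransferase gene mdy had 54.8 and 57.4 CPM in Starvation A and B, against 36.0, 29.5 and 34.1 CPM in Normal A, B and C. The groups did not overlap, with a log2 fold change of 0.99 ± 0.31 that did not pass the test (adjusted p = 0.11, edgeR). The Normal B value joined libraries at 39.0 CPM (7 UMIs) and 15.9 CPM (2 UMIs), and was 0 without the shared barcodes. The perilipin gene Lsd-2 had 295 and 241 CPM in Starvation A and B, against 256, 210 and 111 CPM in Normal A, B and C. Normal A exceeded Starvation B, and the log2 fold change was 0.78 ± 0.33 (adjusted p = 0.22, edgeR). In bulk sums of a class, more cells of a subtype and more RNA per cell cannot be told apart. Cortex/chiasm glia were 95 of 366 glial cells in Starvation and 32 of 229 in Normal, astrocyte/neuropil glia 36 in Starvation and 45 in Normal, and surface glia 56 in Starvation and 42 in Normal.

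The share of glial cells with at least 1 UMI was also taken on cells thinned to 1000 UMIs, since depth differed between replicates. For Lip4 the mean share over replicates was 41.7% in Starvation and 19.2% in Normal, and for pdgy 12.4% in Starvation and 6.55% in Normal. The share for whd was 7.96% in Starvation and 2.55% in Normal, and that for FASN1 3.90% in Starvation and 8.10% in Normal. Without thinning, a UMI of Lip4 was found in 76.0% of Starvation and 48.2% of Normal glial cells, of pdgy in 51.4% of Starvation and 29.7% of Normal cells, of whd in 35.3% of Starvation and 21.6% of Normal cells, and of FASN1 in 21.4% of Starvation and 38.7% of Normal cells. In neurons, pooled over replicates and thinned in the same way, 2.53% of Starvation and 1.22% of Normal cells had a Lip4 UMI, where free RNA from glia is not separated from expression. The thinned share of whd in neurons was 2.12% in Starvation and 1.65% in Normal, so that the Normal share in glia lay close to that in neurons.

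Other transcripts moved with the condition in the same glial cells. The summed level of 13 heat shock genes was 286 and 423 CPM in Starvation A and B, against 1974, 731 and 2400 CPM in Normal A, B and C, and its part in the results was not tested. The markers of astrocyte/neuropil glia summed to 16839 and 9086 CPM in Starvation A and B, against 20269, 12880 and 8945 CPM in Normal A, B and C, so that these groups overlapped. Fat body, which is rich in lipid genes, was checked with 11 markers. Their sum was 595 and 485 CPM in Starvation, against 428, 535 and 583 CPM in Normal, most of it from apolpp and regucalcin. The marker fon reached 26.2 CPM (8 UMIs) in Normal B glia. Lsp2, Fbp1, Fbp2, Lsp1alpha and Lsp1beta were at 0 in every glial replicate. All of these but Lsp1beta were also at 0 over all cells of every replicate, so their absence from glia cannot tell whether fat body was present.

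In the named glial subtypes, too few replicates held 10 cells to test astrocyte/neuropil and cortex/chiasm glia. Pooled over cells, Lip4 was at 1838 CPM in Starvation (interval 1705 to 1979) and 720 CPM in Normal (616 to 836) in astrocyte/neuropil glia, and at 909 CPM in Starvation (848 to 972) and 189 CPM in Normal (153 to 232) in cortex/chiasm glia. In cortex/chiasm glia, pdgy was at 253 CPM in Starvation (222 to 288) and 37.9 CPM in Normal (22.8 to 59.2). FASN1 there was at 111 CPM in Starvation (90.3 to 134) and 215 CPM in Normal (177 to 260). These intervals do not include the spread between replicates. With replicates of at least 4 cells, a limit chosen after seeing the data, 66 of 2001 genes (3.3%) were called in cortex/chiasm glia. Lip4 at 2.39 ± 0.35 (adjusted p = 0.0013, edgeR) and pdgy at 2.61 ± 0.46 (adjusted p = 0.0049) were among them, and ACC, FASN1, mdy and Lsd-2 were tested and not called. This class joined 2 clusters of unlike make-up, one with 62 Starvation and 8 Normal cells and the other with 33 Starvation and 24 Normal cells. In astrocyte/neuropil glia 16 of 1146 genes (1.4%) were called under the same limit, and neither Lip4 (1.05 ± 0.43, adjusted p = 0.27) nor Lsd-2 (1.21 ± 0.54, adjusted p = 0.33) was called.

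**Figure D3:**
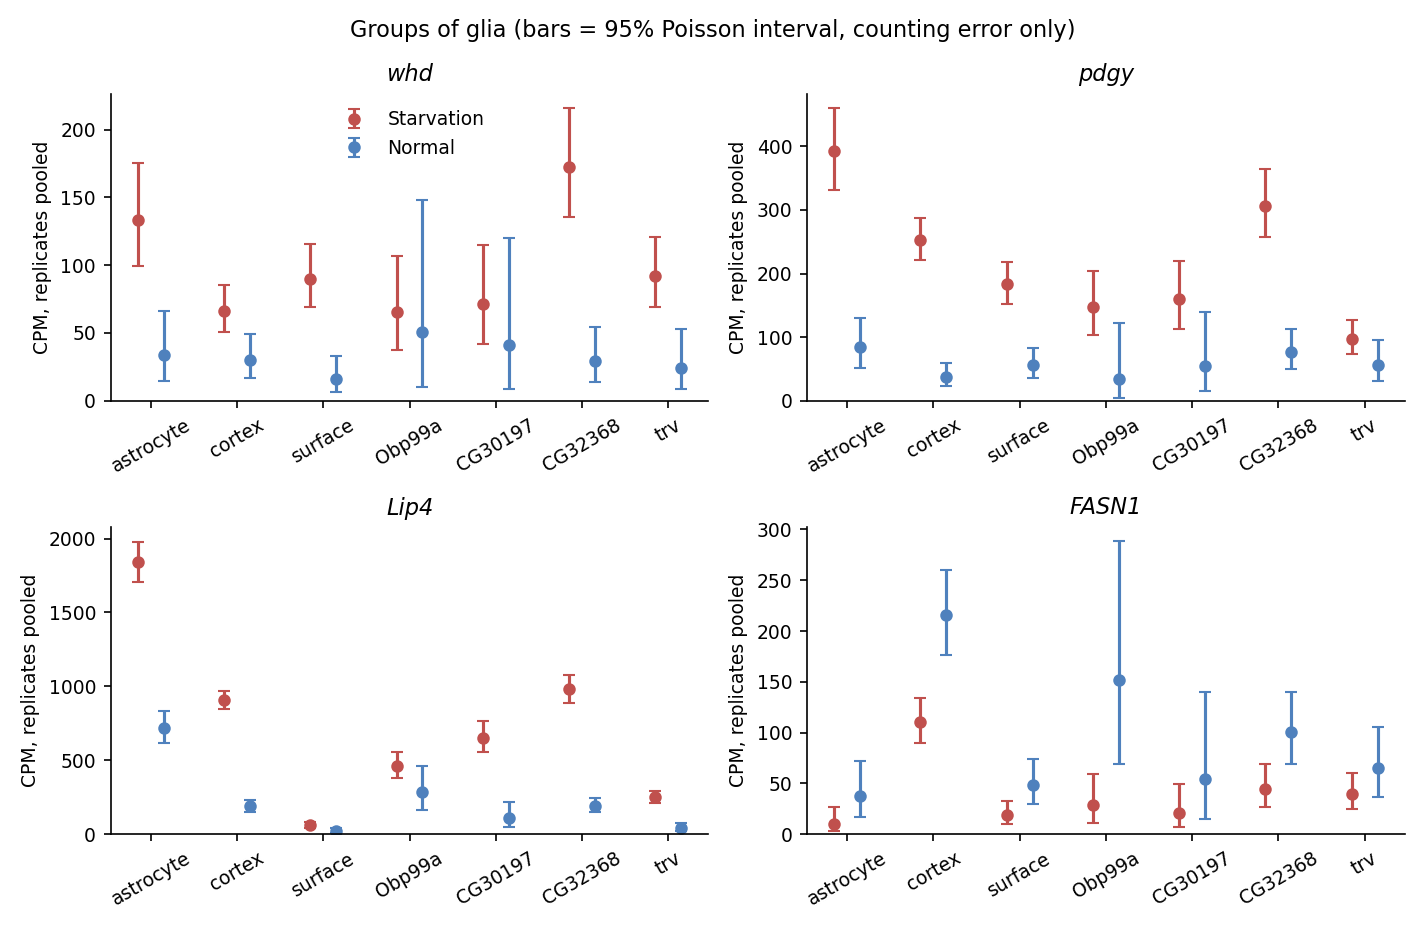
Level of whd, pdgy, Lip4 and FASN1 (CPM, replicates pooled) in the 3 named glial subtypes and the 4 clusters called by their leading genes, with Starvation left of Normal and exact 95% Poisson intervals as bars, which cover counting error only. Lip4 is low in surface glia and highest in astrocyte/neuropil glia, and FASN1 of Normal larvae is highest in cortex/chiasm glia, where its interval overlaps that of the cluster led by Obp99a.

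Surface glia, which form the barrier around the brain, could be tested in both Starvation and 2 Normal replicates. The cells compared came largely from different clusters: 19 of the 23 Normal B cells lay in a cluster with 3 Starvation cells, while Starvation A had 19 and 25 cells in the other 2 clusters. The gene whd had 94.2 and 60.0 CPM in Starvation A and B, against 25.5 and 18.0 CPM in Normal B and C. Its log2 fold change was 2.16 ± 0.65 and did not pass the test (adjusted p = 0.19, edgeR). For pdgy the values were 172 and 264 CPM in Starvation A and B, against 115 and 43.2 CPM in Normal B and C, with a log2 fold change of 1.71 ± 0.58 (adjusted p = 0.22). Lsd-2 had 281 and 204 CPM in Starvation, against 204 and 137 CPM in Normal (0.71 ± 0.46, adjusted p = 0.48). In this fit 1 of 1903 genes was called (0.0525%), and 0 of the 3 genes tested. By DESeq2, 8 genes were called. At an unadjusted p under 0.05 stood 294 genes, whd and pdgy among them.

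The clusters without a subtype name were tested only where replicates allowed, a choice made after seeing the data. In the cluster led by CG30197, 13 of 617 genes (2.11%) were called, Lip4 among them at 2.51 ± 0.63 (adjusted p = 0.0087, edgeR), and not by DESeq2 (adjusted p = 0.25). The call was lost without Starvation A (2.21, adjusted p = 0.19) and without Normal A (2.27, adjusted p = 0.19). In the cluster led by Obp99a the estimate for Lip4 was 0.85 ± 0.60 (adjusted p = 0.43). Pooled whd was at 172 CPM in Starvation (135 to 216) and 29.5 CPM in Normal (14.2 to 54.3) in the cluster led by CG32368, which had 30 Starvation and 17 Normal cells. Whether the 3 named subtypes differ in their change could not be fitted with at least 10 cells per replicate, and between the unnamed clusters this was not tested.

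Outside the glia none of the 8 genes was called by edgeR in any class tested. In neurons, 3 of 8194 genes were called (0.0366%), 694 had an unadjusted p under 0.05 and DESeq2 called 116. The replicates differed in their mix of neurons. In the cluster led by CG12239, 593 of 658 cells came from Normal A, which had 835 neurons. In that led by CG11000, 240 of 251 cells came from Normal B. FASN1 came closest, with 43.5 and 41.7 CPM in Starvation A and B, against 72.6, 81.5 and 86.7 CPM in Normal A, B and C. The replicates were tight and did not overlap, the log2 fold change was -0.90 ± 0.22 and the adjusted p was 0.30 by edgeR and 0.030 by DESeq2. Over 16 alternatives, including a run without both of these clusters, the estimate for FASN1 lay between -1.02 and -0.76. ACC did not overlap either, at 12.7 and 11.6 CPM in Starvation A and B, against 14.2, 15.6 and 16.3 CPM in Normal A, B and C (-0.32 ± 0.25, adjusted p = 0.79). These 2 of the 8 genes stand against 24.4% of all genes without overlap. The other estimates in neurons were 0.31 ± 0.25 for whd, 0.35 ± 0.47 for pdgy, 0.71 ± 0.69 for Lip4, 0.56 ± 0.28 for bmm, 0.83 ± 0.86 for mdy and 0.02 ± 0.56 for Lsd-2, and those of pdgy, Lip4, mdy and Lsd-2 were negative without Starvation A, at -0.46, -0.21, -0.38 and -0.26. Lip4 in neurons, at 24.6 and 8.80 CPM in Starvation and 25.1, 4.33 and 5.59 CPM in Normal, was high in Starvation A and Normal A, the replicates in which the summed glial markers of neurons were highest in their condition, and the part of these markers was not tested.

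In NPCs, which give rise to neurons and glia, 7 of 7294 genes were called (0.096%), 1132 had an unadjusted p under 0.05 and DESeq2 called 167. Of the 173 NPCs of Normal C, 124 lay in a cluster led by Pen, which held 42 of the 566 Starvation NPCs. The part of this make-up in the estimates was not tested. The lipase gene bmm had 80.96 and 70.98 CPM in Starvation A and B, against 45.2, 37.0 and 19.4 CPM in Normal A, B and C. Both Starvation replicates were above all Normal ones, with a log2 fold change of 1.48 ± 0.30 (adjusted p = 0.074 by edgeR and 0.013 by DESeq2). Without the copies of barcodes that were richer in another library, 337 of 470 NPCs in Normal B and 146 of 471 in Starvation A, bmm was called at 1.66 (adjusted p = 0.028). That fit called 197 genes in all, against 7 in the main fit, so the call is not particular to bmm. For mdy the values were 44.4 and 28.4 CPM in Starvation A and B, against 33.9, 19.9 and 8.80 CPM in Normal A, B and C, which overlap (1.30 ± 0.40, adjusted p = 0.14). FASN1 had 24.9 and 29.6 CPM in Starvation A and B, against 60.3, 37.4 and 60.6 CPM in Normal A, B and C, without overlap (-0.75 ± 0.31, adjusted p = 0.27). These 2 genes without overlap compare with 36.5% of all genes. The other estimates in NPCs were 1.44 ± 0.51 for Lip4 (adjusted p = 0.20), 1.54 ± 0.76 for pdgy (0.35), 0.16 ± 0.37 for whd, 0.22 ± 0.32 for Lsd-2 and -0.31 ± 0.42 for ACC. Without Starvation A the estimate for pdgy was -0.91, and without Normal C that for whd was -0.11. The heat shock genes summed to 923 and 1024 CPM in Starvation NPCs, against 4745, 4183 and 5656 CPM in Normal NPCs, and their part was not tested.

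**Figure D4:**
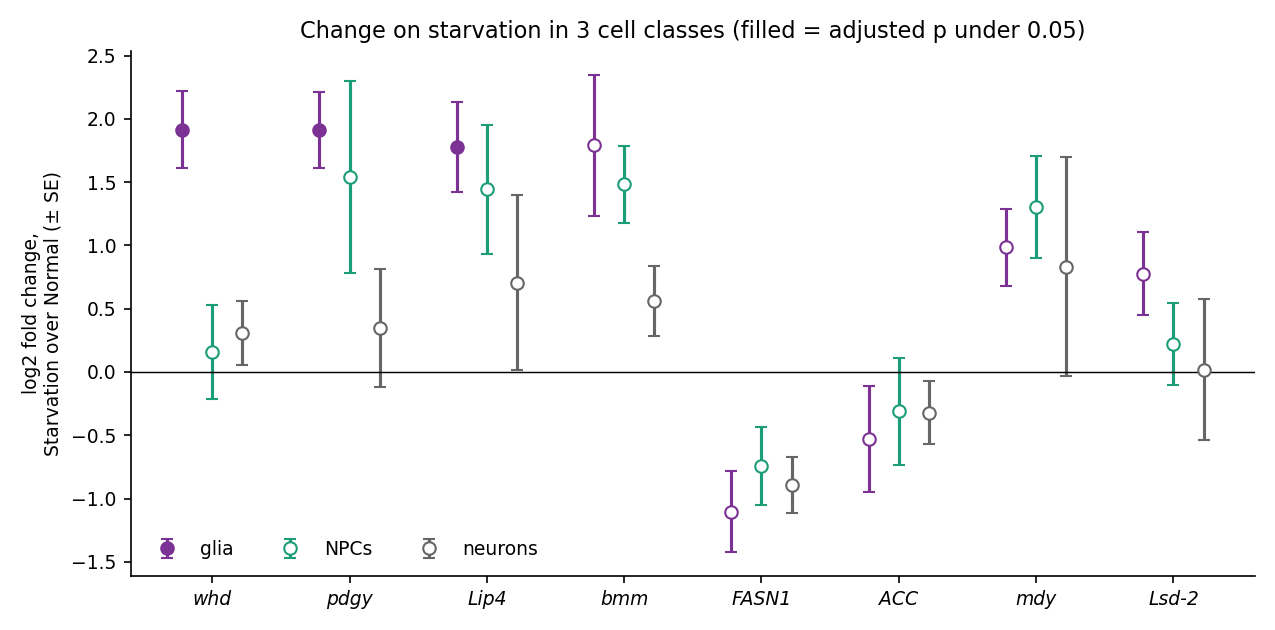
Log2 fold change of each gene, Starvation over Normal, in glia, NPCs and neurons, with its standard error as a bar and a filled point where the adjusted p was under 0.05. Only whd, pdgy and Lip4 in glia are filled, and bmm is above 0 and FASN1 and ACC are below 0 in all 3 classes.

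In the optic lobe epithelium, the neuroepithelium of the visual centres, 45 of 4838 genes were called (0.93%) and 0 of the 6 genes tested, of which bmm, FASN1, mdy and whd had an unadjusted p under 0.05. The values of bmm were 80.9 and 70.7 CPM in Starvation A and B, against 36.3 and 12.9 CPM in Normal B and C, with a log2 fold change of 1.79 ± 0.46 (adjusted p = 0.061, edgeR). FASN1 had 28.1 and 7.85 CPM in Starvation A and B, against 39.2 and 91.9 CPM in Normal B and C (-1.44 ± 0.50, adjusted p = 0.17). Without the copies, bmm and FASN1 passed, at 2.42 (adjusted p = 0.0062) and -1.87 (adjusted p = 0.031). That fit called 550 genes in all, against 45 in the main fit, so the 2 calls are not particular to these genes. It left out 71 of 91 cells in Normal B and 36 of 61 in Starvation A, and Starvation B had 10 cells. All 24 Normal C cells lay in a cluster led by Ocho, while 8 of the 10 Starvation B cells lay in one led by E(spl)m4-BFM. The part of this make-up in the estimates was not tested. Lip4 had 14.6 and 11.8 CPM in Starvation against 2.90 and 5.18 CPM in Normal, pdgy 19.1 and 7.85 CPM in Starvation against 2.90 and 10.4 CPM in Normal, ACC 19.1 and 19.6 CPM in Starvation against 17.4 and 29.8 CPM in Normal, and Lsd-2 15.7 and 15.7 CPM in Starvation against 20.3 and 16.8 CPM in Normal. The estimate for mdy was 1.72 ± 0.64 (adjusted p = 0.19) and that for whd 1.38 ± 0.57 (adjusted p = 0.24).

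In UNs 0 of 5256 genes were called (0.0%) by edgeR, 368 had an unadjusted p under 0.05 and DESeq2 called 2. The level of bmm was 82.1 and 113 CPM in Starvation A and B, against 23.1 and 71.1 CPM in Normal A and B, with a log2 fold change of 1.13 ± 0.51 (adjusted p = 0.70). FASN1 had 13.1 and 11.3 CPM in Starvation, against 55.1 and 27.7 CPM in Normal (-1.55 ± 0.57, adjusted p = 0.59). The UNs joined clusters of unlike make-up. A cluster led by Hsp68 held 217 of the 219 Normal A cells and only 7 Starvation cells. Another, led by hdc, held 359 of the 362 Normal B cells and 222 Starvation cells. The part of this make-up in the estimates was not tested. The Starvation replicates of UNs differed widely for whd (31.7 and 7.53 CPM), pdgy (35.4 and 7.53 CPM) and Lip4 (33.6 and 7.53 CPM), with Normal values of 23.1 and 32.6 CPM for whd, 28.4 and 31.4 CPM for pdgy and 21.3 and 8.44 CPM for Lip4. UNs held 59 UMIs of whd, 63 of pdgy and 39 of Lip4 over all replicates. The equal Starvation B values are therefore very low counts, which limit this difference. ACC, mdy and Lsd-2 stayed at or below 14.9 CPM in Starvation and 20.5 CPM in Normal. In muscle no gene of the 8 was frequent enough to test. FASN1 there had 15.1 and 17.6 CPM in Starvation A and B, against 55.2 and 148 CPM in Normal A and B. Over all cells together, 0 of 9120 genes were called (0.0%) by edgeR, 922 had an unadjusted p under 0.05 and DESeq2 called 216. The estimates there were -0.98 ± 0.22 for FASN1 (adjusted p = 0.30, and 0.012 by DESeq2), 1.07 ± 0.23 for mdy (0.30, and 0.044 by DESeq2) and 0.84 ± 0.23 for whd (0.34).

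Whether the change in glia differs from that in other classes was tested directly, with a class by condition term over both classes and the replicate as a further term, since both classes of a replicate come from the same libraries. Against neurons 0 of 8209 genes were called (0.0%) by edgeR and 0 by DESeq2, and 386 had an unadjusted p under 0.05. The difference was 1.55 ± 0.38 for whd (adjusted p = 0.57) and 1.54 ± 0.39 for pdgy (adjusted p = 0.59) on the log2 scale. It was 1.05 ± 0.60 for Lip4, 1.18 ± 0.52 for bmm and 0.72 ± 0.41 for Lsd-2 (adjusted p = 0.997 for each). Against NPCs 0 of 7310 genes were called (0.0%), with 422 at an unadjusted p under 0.05. There the difference was 1.77 ± 0.46 for whd (adjusted p = 0.38), 0.65 ± 0.51 for Lip4 (0.94) and 0.75 ± 0.37 for Lsd-2 (0.86). A change of whd, pdgy or Lip4 that is particular to glia was therefore not shown at this number of replicates.

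Other genes of the same pathways were taken from lists of 8 functions. Of 20 further genes of fatty acid oxidation, 15 could be tested in glia and 1 was called. This was CG12262, the medium-chain acyl-CoA dehydrogenase Mcad, with 221 and 158 CPM in Starvation A and B, against 54.9, 75.4 and 85.2 CPM in Normal A, B and C. Its log2 fold change was 1.65 ± 0.29 (adjusted p = 0.025, edgeR), and the groups did not overlap. Of the 15 estimates 12 were above 0, with a median of 0.27. Among 11 regulators of metabolism 7 were tested and 1 was called, the insulin receptor gene InR, with 261 and 361 CPM in Starvation A and B, against 94.7, 95.1 and 126 CPM in Normal A, B and C (1.81 ± 0.29, adjusted p = 0.017). The rise of InR was not confined to glia. In neurons it had 426 and 484 CPM in Starvation, against 232, 202 and 206 CPM in Normal. In NPCs it had 562 and 655 CPM in Starvation, against 437, 324 and 215 CPM in Normal. It was called in neither class. CG12262 overlapped between the conditions in both.

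No gene was called in glia among 6 tested of 10 further genes of lipogenesis, 6 of 9 of triacylglycerol synthesis, 5 of 12 lipid carriers, 2 of 7 further acyl-CoA synthetases and 2 of the 5 matched lipid droplet proteins. None of 22 further lipases was frequent enough to test. Closest to the threshold among these were Desat1, a fatty acid desaturase, with 746 and 753 CPM in Starvation against 508, 446 and 349 CPM in Normal (1.06 ± 0.25, adjusted p = 0.051), and the glial lipocalin gene GLaz, with 211 and 306 CPM in Starvation against 72.0, 167 and 70.1 CPM in Normal (1.64 ± 0.41, adjusted p = 0.061). Both were singled out after their values were seen. Of 13 heat shock genes 7 were tested and 1 was called, Hsp26, with 17.7 and 21.5 CPM in Starvation A and B, against 413, 118 and 200 CPM in Normal A, B and C (-3.43 ± 0.51, adjusted p = 0.015), and the median of the 7 estimates was -2.30. In neurons none of these list genes was called. In NPCs the heat shock genes Hsp68 and Hsp70Bc were called, both lower in Starvation. Hsp26 was lower in NPCs as well, at 142 and 227 CPM in Starvation A and B, against 1085, 848 and 933 CPM in Normal A, B and C, without being called. In neurons the values of Hsp26 overlapped.

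The genes whose levels most resembled each member were found by Pearson's r of log2(CPM + 5) over 47 points of class and replicate, among 8376 genes. The points share libraries and depth, so r is a description only. Lip4 was matched closely, with CG1545 at 0.94, CG7888 at 0.93 and CG31706 at 0.93. Lsd-2 was most like CG17896 (0.89), Idgf3 (0.87) and Spn88Ea (0.86), pdgy most like Got1 (0.81), and bmm most like CG42566 (0.80). For whd the closest was CG12768 (0.75), for FASN1 Hsp60A (0.74), for mdy lncRNA:CR42719 (0.69) and for ACC CG8128 (0.66). Among the 8 genes themselves, r ran from -0.53 for bmm and FASN1 to 0.72 for pdgy and Lsd-2, with 0.67 for Lip4 and Lsd-2 and 0.63 for pdgy and Lip4.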

How the data were processed

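Single cell transcriptomes of 7 libraries (3 Starvation, 4 Normal) were analysed. The authors aligned reads to a FlyBase release 6 genome with Cell Ranger (no version is given in the labels) and deposited raw UMI counts per gene and cell, without normalization, in single libraries and in aggregated matrices. At all 9353 cells the aggregated counts equalled those of the single libraries. The labels and the methods name different kit versions. Cells with 200 to 4500 genes and at most 20% mitochondrial UMIs were kept and clustered in Seurat 5.3.0 on 2000 variable genes, with the 2 conditions integrated by anchors, 31 components and a resolution of 2 (glia: 11 components, resolution 1). Genes of the lists were held out of the clustering. A cluster was named from at least 3 markers found in 25% of its cells. Scrublet in scanpy 1.11.5 called 41 cells doublets (0.471%), and whether its threshold suited these libraries was not tested. No cells were removed for this, and a run without the 5% highest scores was made instead.

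Counts were summed per replicate and class and tested with edgeR 4.0.16 (TMM, filterByExpr, quasi-likelihood test) in R 4.3.3, with DESeq2 1.42.0 as an alternative. Libraries of 1 experiment were summed. All 8 genes are given in glia, neurons, NPCs, UNs and optic lobe epithelium, and elsewhere those the text describes, with the list genes called in glia and the 3 genes most correlated with each member among those with at least 10 CPM in 3 points. The members, lists and tests were chosen with earlier results of these data known. In simulated glial counts of 3966 genes, 42 of 49 genes raised and 30 of 45 lowered by 2 on the log2 scale were recovered, but only 3 of 50 raised and 1 of 40 lowered by 1. Alternatives were other filters, scalings, clusterings, replicates and cell sets. Reads and sequences were not used here.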

Additional observations from a re-analysis of the deposited data

How the results depend on the processing

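Leaving out each replicate in turn, the number of genes called ran between 1 and 216 in glia (0 to 4 of the 8 genes), 1 and 94 in surface glia (0 to 1), 0 and 4 in neurons (0), 4 and 26 in NPCs (0), 1 and 164 in UNs (0 to 1), 7 and 427 in the optic lobe epithelium (0 to 2), 3 and 21 in the glial cluster led by CG30197 (0 to 1), 0 and 1 over all cells (0), 0 and 2 for glia minus neurons (0) and 0 and 20 for glia minus NPCs (0). In these fits a lone replicate takes the spread of the other condition. With the 7 libraries as separate samples, 473 of 4191 genes (11.3%) were called in glia (6 of the 8), 432 of 8478 (5.10%) over all cells (3), 244 in neurons (1), 835 in NPCs (3), 67 in UNs, 100 in the optic lobe epithelium and 0 in surface glia. This setting treats libraries of the same experiment as independent replicates, so its larger counts are not stronger evidence than the main fit. Without a filter on low counts the calls were 404 of 10598 genes (3.81%) in glia (5 of the 8), 169 over all cells, 37 in surface glia, 335 in neurons (1), 445 in NPCs (2), 22 in UNs, 178 in the optic lobe epithelium (1), 8 in the cluster led by CG30197, 37 for glia minus neurons (1, pdgy) and 35 for glia minus NPCs (1, whd). DESeq2 called 216 genes over all cells (2), 8 in surface glia, 116 in neurons (1), 167 in NPCs (1), 2 in UNs, 27 in the optic lobe epithelium and 2 in the cluster led by CG30197 (0). With a term for the aggregation round the calls were 190 in glia, 74 in surface glia, 7 in neurons, 22 in NPCs, 173 in the optic lobe epithelium (1) and 4 in the cluster led by CG30197. Without the cells that had over 3 times the UMIs in another library, 197 genes were called in NPCs (1), 550 in the optic lobe epithelium (2) and 5 for glia minus NPCs. Without all cells of a shared barcode, an alternative added after seeing the data, 0 genes were called in neurons, 30 in NPCs, 4 for glia minus neurons and 9 for glia minus NPCs, and with replicates of at least 4 cells 0 in surface glia. Without thinning, the shares of glial cells with a UMI were 35.3% in Starvation and 21.6% in Normal for whd, 51.4% in Starvation and 29.7% in Normal for pdgy, 76.0% in Starvation and 48.2% in Normal for Lip4, and 21.4% in Starvation and 38.7% in Normal for FASN1. The causes of these shifts were not tested, except that replicates and cells were fewer where some were left out. The fits by DESeq2 and with the aggregation round tested the same genes as the main fits. These were 8194 in neurons, 7294 in NPCs and 4838 in the optic lobe epithelium. Where no share of all genes is given, a count of the 8 genes cannot be weighed against it and is no result about them.

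The label numbers did not pair the libraries: the deviations of same-numbered libraries correlated at 0.04, 0.21 and -0.15 over 8478 genes. The highest value, 0.36, was between Normal number 4 and Starvation number 3, the 2 libraries of the later aggregation round, and Normal number 4 had -0.27 and -0.31 with Starvation numbers 1 and 2. With the label number as a replicate block, 55 genes were called over all cells, 72 in neurons, 488 in NPCs (2 of the 8), 19 in UNs, 2 in the optic lobe epithelium and 20 in the cluster led by CG30197. In glia whd, pdgy and Lip4 remained called, among 151 of 4191 genes (3.60%). Libraries of the same experiment count as separate samples here too, and the 2 genes called in NPCs are not weighed against a share of all genes.

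Direction changed in neurons and NPCs, for genes that were not called there, and for no other fold change whose alternatives were compared. Alternatives were not compared for Lip4 in the cluster led by Obp99a or for list genes such as InR and GLaz. The same holds for the added fits of astrocyte/neuropil and cortex/chiasm glia with a lower limit of cells. Whether direction holds in these was not tested. In neurons Lsd-2 was at -0.014 by DESeq2, -0.10 without the highest doublet scores, -0.0020 without shared barcodes and between -0.26 and 0.69 with 1 replicate left out, where pdgy lay between -0.46 and 0.79, Lip4 between -0.21 and 1.72 and mdy between -0.38 and 1.35. In NPCs whd was at -0.081 with the block and between -0.11 and 0.40 with 1 replicate left out, and pdgy between -0.91 and 2.21. Surface glia without copies, shared barcodes or high doublet scores and the optic lobe epithelium without shared barcodes gave no fit, nor did the alternatives for hemocytes and for astrocyte/neuropil and cortex/chiasm glia, except the 7 libraries in the last. A change of 1 on the log2 scale was rarely recovered in glia simulated at the depth and number of replicates of these data.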
